A study of Mus musculus with 9 samples.

Results

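The genes described here encode mitophagy receptors and autophagy adaptors of the mouse left ventricle. They were chosen by symbol from the count table, and all 10 were present, of 26178 entries in all: Pink1, Bnip3, Bnip3l, Fundc1, Sqstm1, Optn, Map1lc3a, Map1lc3b, Gabarapl1 and Gabarapl2. All 10 passed the filter on low counts, in every group alike, since the lowest count of any of them in any library was 951 reads (Fundc1). The study profiled heart mRNA from wild-type mice in 3 groups of 3 biological replicates, as labelled. In HFD AAV-BCKDK, mice on the HFD diet (taken as high-fat) were given an adeno-associated virus (AAV) named for BCKDK, the kinase that switches off branched-chain ketoacid dehydrogenase. HFD AAV-CON combined that diet with a control virus, and ND AAV-CON combined the control virus with the ND diet, taken as normal. Every animal thus carried a vector, and the promoter that drives it, its dose and the length of the diet are not stated in the labels. By its title the study asks about BCKDK, obesity and remodelling of the heart.

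Mitophagy is the removal of damaged mitochondria by autophagy, and the heart depends on it because its cells are packed with mitochondria and seldom divide. In one branch the kinase PINK1 builds up on damaged mitochondria and phosphorylates ubiquitin, and adaptors such as optineurin (Optn) and p62 (Sqstm1) then tie ubiquitin-tagged cargo to the growing autophagosome. In another branch BNIP3, NIX (Bnip3l) and FUNDC1 sit in the outer mitochondrial membrane and bind the autophagosome directly. Both branches end on ATG8 proteins, the LC3 family (Map1lc3a, Map1lc3b) and the GABARAP family (Gabarapl1, Gabarapl2), which are attached to autophagosome lipid. The values below are mRNA levels, and the flux of mitochondria through autophagy was not measured.

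Annotated genes held between 32803233 and 45483044 counts per library. The 3 HFD AAV-CON libraries stood apart from each other. Mitochondrially encoded RNA took 26.1%, 39.9% and 33.2% of their counts in replicates 1, 2 and 3, against 45.0% to 47.6% in HFD AAV-BCKDK and 42.1% to 45.7% in ND AAV-CON. HFD AAV-CON replicate 3 lay between the other libraries of its group for 64.1% of genes tested and for 9 of the 10 members, where the share for the other 8 libraries ran from 14.8% to 37.5% of genes, and unnamed loci took 1.02% of its counts against 4.75% or more elsewhere. Whether it is a library independent of the other 2 was not tested, and the SEs and adjusted p-values below count HFD AAV-CON as 3 replicates. Members' calls are therefore also given without it. Bckdk, the gene the vector is named for, stood at 111, 126 and 120 CPM in HFD AAV-BCKDK, at 37.1, 65.0 and 49.4 CPM in HFD AAV-CON and at 78.6, 70.3 and 70.6 CPM in ND AAV-CON. CPM is the read count scaled to the library size after TMM factors. The cardiomyocyte markers Myh6, Tnnt2, Tnni3, Actc1, Myl2, Ryr2, Ttn and Pln were present in every library.

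Under the high-fat diet with the control vector, transcripts of 8 of the 10 genes fell, none rose and 2 were not called, where 20.6% of all 14160 genes tested fell, 22.7% rose and 43.3% were called in either direction. Gabarapl1, Pink1, Optn and Bnip3 had the largest decreases of the 10, and Fundc1 and Sqstm1 were not called. With the BCKDK vector under the same diet, the same 8 genes rose relative to HFD AAV-CON, where 17.3% of genes rose, 20.9% fell and 38.2% were called in either direction. Both comparisons use the same HFD AAV-CON libraries, so a low level there enters one as a fall and the other as a rise. Between HFD AAV-BCKDK and ND AAV-CON 0 of the 10 were called by edgeR, where 2.45% of genes were (1.18% rose and 1.27% fell), and 0 by DESeq2; 1 (Gabarapl1) had an unadjusted p under 0.05. The median log2 fold change of the 10 was -0.63 for the diet, 0.50 for the vector and 0.05 between HFD AAV-BCKDK and ND AAV-CON, against medians of -0.00, -0.01 and -0.03 over all genes tested.

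These directions are relative to the typical gene. With total-count scaling the median of all genes moved to 0.40 for the diet and -0.47 for the vector. On that scale the diet values of Bnip3l (0.20), Fundc1 (0.37), Sqstm1 (0.21) and Gabarapl2 (0.03) turned positive and their vector values (-0.23, -0.33, -0.21 and -0.02) turned negative. Pink1, Bnip3, Map1lc3a, Map1lc3b, Gabarapl1 and Optn kept their signs in both comparisons under every scaling tried. Calls on the total-count scale numbered 2 falls (Pink1 and Gabarapl1) and 1 rise (Fundc1) for the diet, and 2 rises (Pink1 and Map1lc3a) for the vector. Of all 14160 genes tested, 934 fell and 5986 rose for the diet on that scale. For the vector 398 rose and 6867 fell.

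**Figure D1:**
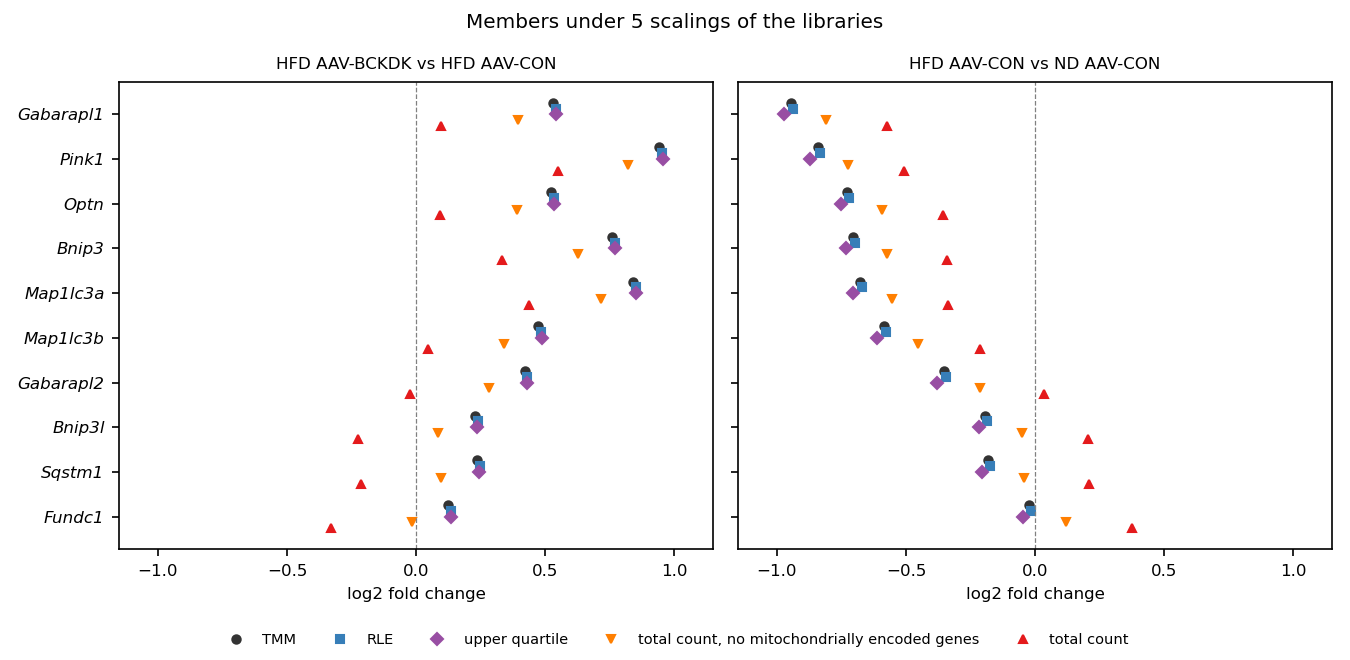
Log2 fold change of each member (rows) under 5 scalings of the libraries (symbols), for the vector at left and the diet at right. With total counts Gabarapl2, Bnip3l, Sqstm1 and Fundc1 cross the 0 line in both panels, and the other 6 members do not.

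Pink1 (chr4:138313409-138326307, minus strand, mm10), the kinase that marks damaged mitochondria, showed the widest spread among the high-fat control hearts. It stood at 484, 479 and 457 CPM in HFD AAV-BCKDK replicates 1, 2 and 3, at 154, 362 and 225 CPM in HFD AAV-CON and at 447, 432 and 448 CPM in ND AAV-CON. Every HFD AAV-CON library was below every other library, and replicate 1 of that group held less than any. Under the diet Pink1 fell by 0.84 in log2 fold change (SE 0.25, adjusted p = 0.0215), and with the vector it rose by 0.94 (SE 0.25, adjusted p = 0.0173). Dropping ND AAV-CON replicate 1 (0.0556), ND AAV-CON replicate 2 (0.0522) or HFD AAV-CON replicate 3 (0.0753) ended the diet call. Dropping HFD AAV-CON replicate 3 (0.0604) or HFD AAV-BCKDK replicate 1 (0.0506) ended the vector call. Between HFD AAV-BCKDK and ND AAV-CON it differed by 0.10, with a 95% interval of -0.45 to 0.64.

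Optn (chr2:5020642-5064051, minus strand, mm10), which carries ubiquitin-tagged mitochondria to the autophagosome, was present at 91.1, 64.7 and 69.7 CPM in HFD AAV-BCKDK, at 43.7, 60.9 and 52.3 CPM in HFD AAV-CON and at 77.6, 89.0 and 93.1 CPM in ND AAV-CON. The high-fat control libraries were the 3 lowest, with HFD AAV-BCKDK replicate 2 just above them. Optn fell by 0.73 under the diet (SE 0.15, adjusted p = 0.00567) and rose by 0.52 with the vector (SE 0.15, adjusted p = 0.0262). The vector call was lost without HFD AAV-CON replicate 1 (0.0644), HFD AAV-CON replicate 3 (0.0678) or HFD AAV-BCKDK replicate 1 (0.0907).

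Sqstm1 (chr11:50199366-50210827, minus strand, mm10), which encodes the ubiquitin adaptor p62, moved little. It held 521, 462 and 462 CPM in HFD AAV-BCKDK, 389, 428 and 411 CPM in HFD AAV-CON, and 465, 468 and 460 CPM in ND AAV-CON. The HFD AAV-CON libraries lay below all others, but neither comparison passed the test: the diet value was -0.18 (95% interval -0.38 to 0.02, adjusted p = 0.127) and the vector value 0.24 (0.03 to 0.44, adjusted p = 0.0641). The vector value was called by DESeq2 (adjusted p = 0.0072), with upper-quartile factors (0.045) and without HFD AAV-CON replicate 2 (0.0178). The annotation places exons of Mrnip on the opposite strand over 17.3% of the exonic bases of Sqstm1, and Mrnip held 195 counts over the 9 libraries.

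**Figure D2:**
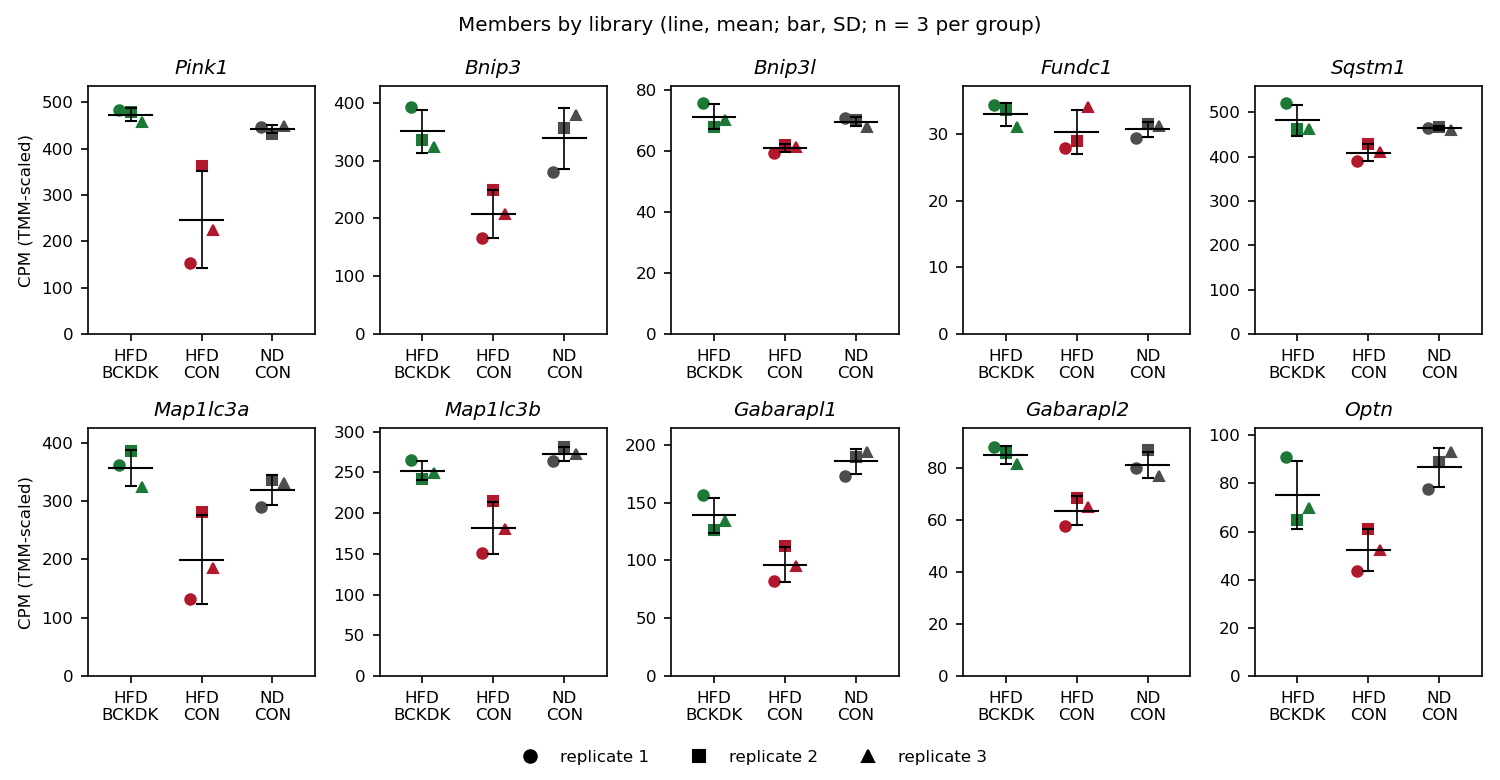
CPM of each member (panels) in every library, by group, with the mean (line) and SD (bar) of 3 replicates. In HFD AAV-CON, Pink1 runs from 154 to 362 CPM and Map1lc3a from 131 to 281 CPM, while Bnip3l stays between 59.4 and 61.9 CPM.

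Bnip3 (chr7:138890836-138909519, minus strand, mm10), an outer-membrane receptor that hypoxia is known to induce, was high in both of the other groups and low in high-fat control hearts. Its level was 393, 336 and 324 CPM in HFD AAV-BCKDK, 165, 249 and 207 CPM in HFD AAV-CON and 280, 357 and 378 CPM in ND AAV-CON. The 3 HFD AAV-CON libraries were the lowest of the 9, and the other groups overlapped. Bnip3 fell by 0.71 under the diet (SE 0.17, adjusted p = 0.0093) and rose by 0.76 with the vector (SE 0.17, adjusted p = 0.0093), and both calls were kept in all 9 fits that left out 1 library. An annotated antisense transcript shares 22.3% of its exonic bases, and without knowledge of strand its reads cannot be told apart from those of Bnip3.

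Bnip3l (chr14:66985239-67008877, minus strand, mm10), which encodes NIX, the receptor that clears mitochondria from maturing red cells, changed by far less than its paralog. It held 75.9, 67.8 and 70.2 CPM in HFD AAV-BCKDK, 59.4, 61.9 and 61.5 CPM in HFD AAV-CON, and 70.8, 70.2 and 67.9 CPM in ND AAV-CON. The libraries of HFD AAV-CON were close to each other and were the 3 lowest. The diet value was -0.19 (SE 0.07, adjusted p = 0.0454) and the vector value 0.23 (SE 0.07, adjusted p = 0.0282). The diet call was kept in 2 of the 9 fits that left out a library, the vector call in 5, and RLE factors also lost the diet call (adjusted p = 0.0568). Erythroid markers, 5 of 6 of them tested, fell in all 5 cases under the diet and rose in all 5 with the vector, and their summed level (6 of 6 measured, with Slc4a1 at 0 in ND AAV-CON replicates 2 and 3) was 971 to 1567 CPM in HFD AAV-BCKDK, 460.2 to 902 CPM in HFD AAV-CON and 1479 to 1657 CPM in ND AAV-CON; their part in the values of Bnip3l was not tested.

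Fundc1 (chrX:17556564-17572325, minus strand, mm10), a receptor whose binding to LC3 is set by phosphorylation, did not pass either test. It stood at 34.4, 33.6 and 31.1 CPM in HFD AAV-BCKDK, 27.9, 29.0 and 34.0 CPM in HFD AAV-CON and 29.5, 31.6 and 31.2 CPM in ND AAV-CON. The groups overlapped, with HFD AAV-CON replicate 3 near the top and replicates 1 and 2 at the bottom. The diet value was -0.02 (95% interval -0.23 to 0.18) and the vector value 0.12 (-0.08 to 0.33), so changes of more than about 0.33 on the log2 scale lie outside both intervals.

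Promoter windows were available for 8 of the 10 genes from RefSeq (build GRCm38.p6, which is mm10), from 250 bases before to 50 after the start site. They were searched on both strands for ACGTG, a form of the core bound by hypoxia-inducible factors. The E-box CACGTG, which TFEB-type lysosomal regulators bind, was searched too and always contains ACGTG. So were the FoxO site in the form GTAAACA and the antioxidant core TGACNNNGC. Other forms, such as GCGTG for the hypoxia core and ATAAACA for the FoxO site, were not searched. The letters ACGTG were found in 2 of the 8 windows and in 19.6% of all 32851 windows of this length. The E-box was in 1 of 8 against 7.15%, GTAAACA in 0 of 8 against 3.65%, and the antioxidant core in 1 of 8 against 12.4%. The 3 windows with a match, those of Bnip3, Gabarapl2 and Map1lc3b, are shown. These genes were called in both comparisons, but so were Pink1, Gabarapl1 and Optn, whose windows held no match. Capitals mark the matches, which are letters and not tested sites.
Bnip3, chr7:138909457-138909756, minus strand: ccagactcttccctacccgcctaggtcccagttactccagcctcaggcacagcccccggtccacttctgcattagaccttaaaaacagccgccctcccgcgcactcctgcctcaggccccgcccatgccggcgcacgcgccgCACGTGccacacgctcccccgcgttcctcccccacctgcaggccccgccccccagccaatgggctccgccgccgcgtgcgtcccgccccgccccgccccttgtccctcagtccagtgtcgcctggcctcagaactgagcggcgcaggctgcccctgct
Gabarapl2, chr8:111940453-111940752, plus strand: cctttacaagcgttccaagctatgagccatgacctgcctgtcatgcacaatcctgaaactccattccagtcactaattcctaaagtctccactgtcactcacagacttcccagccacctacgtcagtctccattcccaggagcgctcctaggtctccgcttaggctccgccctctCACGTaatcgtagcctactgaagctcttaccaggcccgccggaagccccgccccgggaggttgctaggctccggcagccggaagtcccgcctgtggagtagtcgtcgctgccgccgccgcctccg
Map1lc3b, chr8:121590188-121590487, plus strand: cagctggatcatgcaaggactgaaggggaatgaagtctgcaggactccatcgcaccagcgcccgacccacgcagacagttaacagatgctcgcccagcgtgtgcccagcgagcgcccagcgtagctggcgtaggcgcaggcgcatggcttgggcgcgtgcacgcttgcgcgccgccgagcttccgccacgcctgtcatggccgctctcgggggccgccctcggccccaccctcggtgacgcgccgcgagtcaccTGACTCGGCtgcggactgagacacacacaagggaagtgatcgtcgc

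The match in Bnip3 begins 108 bases before the start site and is an E-box, and that in Gabarapl2 begins 75 bases before it. That in Map1lc3b begins at base 5 after the start. The other 5 windows, those of Pink1, Fundc1, Sqstm1, Gabarapl1 and Optn, held no match to the letters searched, which leave out other forms of the sites. The Fundc1 window (chrX:17571958-17572257, minus strand) lies wholly inside the GENCODE span of the gene (chrX:17556564-17572325). The bases before that GENCODE start were therefore not searched for Fundc1.

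Gabarapl1 (chr6:129533160-129542346, plus strand, mm10), which encodes a GABARAP-family protein used late in autophagosome growth, had the largest decrease of the 10 under the diet. Its level was 156, 127 and 134 CPM in HFD AAV-BCKDK, 82.1, 112 and 94.98 CPM in HFD AAV-CON and 173, 190 and 194 CPM in ND AAV-CON. The 3 groups did not overlap, and HFD AAV-BCKDK lay between the others. Gabarapl1 fell by 0.95 under the diet (SE 0.13, adjusted p = 9.01e-04) and rose by 0.53 with the vector (SE 0.13, adjusted p = 0.0122), and all 9 fits that left out a library kept both calls. HFD AAV-BCKDK differed from ND AAV-CON by -0.42 (95% interval -0.70 to -0.13, unadjusted p = 0.00841, adjusted p = 0.13), which passed only in a fit of those groups alone (adjusted p = 0.0379). A noncoding transcript on the opposite strand covers 28.3% of its exonic bases.

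Gabarapl2 (chr8:111940703-111953612, plus strand, mm10), which encodes GATE-16, was at 87.9, 85.5 and 81.2 CPM in HFD AAV-BCKDK, at 57.4, 68.1 and 64.8 CPM in HFD AAV-CON, and at 79.7, 86.7 and 76.7 CPM in ND AAV-CON. The high-fat control libraries were the lowest and the other groups overlapped. The diet value was -0.35 (SE 0.09, adjusted p = 0.0102) and the vector value 0.42 (SE 0.09, adjusted p = 0.00676), and every fit without 1 library kept both calls.

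The LC3 genes differed in how evenly they moved. Map1lc3a (chr2:155276297-155278073, plus strand, mm10), which encodes LC3A, was the most abundant of the 10 per kilobase and had 361, 385 and 323 CPM in HFD AAV-BCKDK, 131, 281 and 186 CPM in HFD AAV-CON and 289, 337 and 330.3 CPM in ND AAV-CON. HFD AAV-CON replicate 2 lay just under the lowest ND AAV-CON library, and replicate 1 far under it. The diet value was -0.68 (SE 0.23, adjusted p = 0.038), and its call was kept in 1 of the 9 fits that left out a library, the one without HFD AAV-CON replicate 2 (the other 8 gave adjusted p of up to 0.112). The vector value was 0.84 (SE 0.23, adjusted p = 0.0202), lost without HFD AAV-CON replicate 3 (0.0661) or HFD AAV-BCKDK replicate 1 (0.0562) or 2 (0.0642).

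Map1lc3b (chr8:121590361-121598760, plus strand, mm10), which encodes LC3B, the form most often used to mark autophagosomes, had 265, 242 and 249 CPM in HFD AAV-BCKDK, 151, 214 and 180.0 CPM in HFD AAV-CON and 264, 281 and 273 CPM in ND AAV-CON. The high-fat control libraries again lay below all others. It fell by 0.59 under the diet (SE 0.12, adjusted p = 0.00529), a call kept in all 9 fits that left out 1 library but not with total counts (-0.21, adjusted p = 0.0586), and rose by 0.47 with the vector (SE 0.12, adjusted p = 0.0163), a call lost without HFD AAV-CON replicate 3 (0.0507) or HFD AAV-BCKDK replicate 1 (0.0569).

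**Figure D3:**
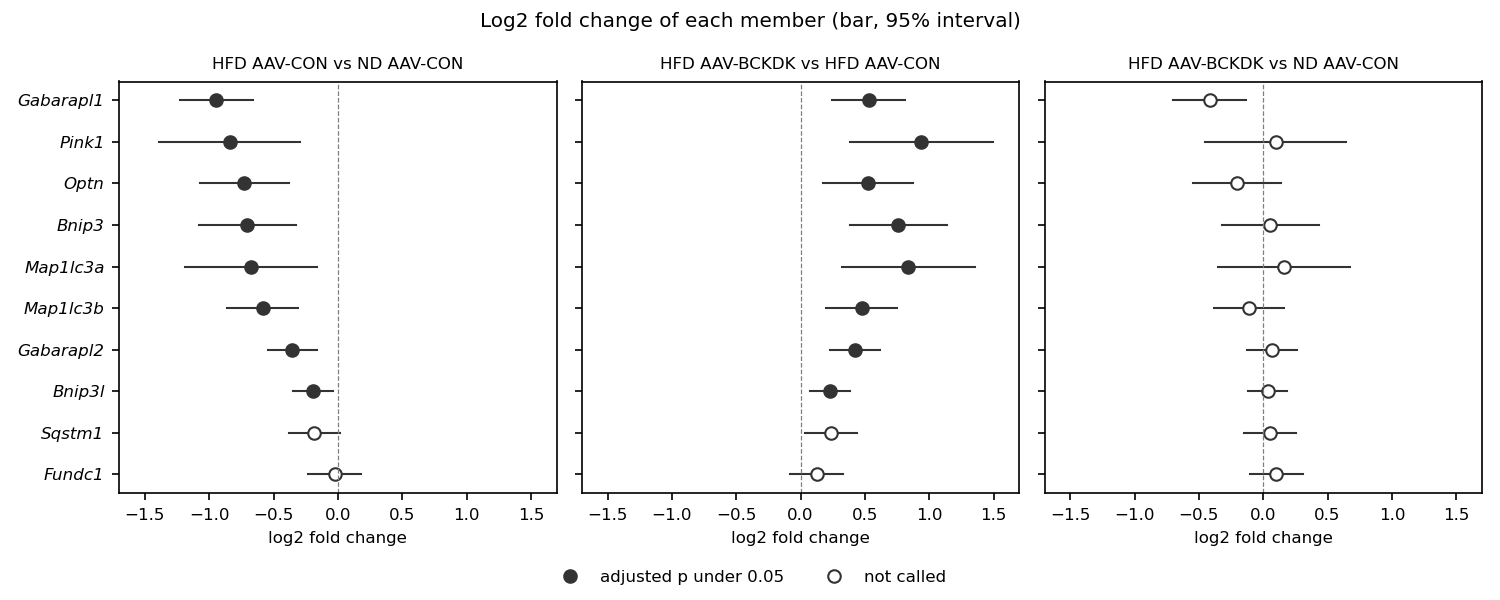
Log2 fold change of each member with its 95% interval in the 3 comparisons, ordered by the diet value; filled points have an adjusted p under 0.05. In the first panel 8 points are filled and negative, in the second the same 8 are filled and positive, and in the third none is filled and Gabarapl1 lies lowest, at -0.42.

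In 9 members, all but Fundc1, the HFD AAV-CON libraries lay below every ND AAV-CON library, as they did for 27.1% of all genes tested (28.2% lay above and 55.3% separated in either direction). In the same 9 the HFD AAV-BCKDK libraries lay above every HFD AAV-CON library, as they did for 24% of genes (27.3% lay below and 51.2% separated). Between HFD AAV-BCKDK and ND AAV-CON the libraries separated for 2 members, Pink1 above and Gabarapl1 below, where 12.6% of genes lay above, 15.1% below and 27.7% in either direction. Without HFD AAV-CON replicate 3 the members called numbered 5 for the diet (Bnip3, Map1lc3b, Gabarapl1, Gabarapl2 and Optn) and 3 for the vector (Bnip3, Gabarapl1 and Gabarapl2). Over all genes, that fit called 4050 for the diet and 2847 for the vector, in either direction. With all 9 libraries these numbers were 6134 and 5410, so calls were fewer over all genes as well. The same 5 members and the same 3 were called in each of the 9 fits that left out 1 library. The count also came to 5 for the diet without ND AAV-CON replicate 1 or 2, and to 3 for the vector without HFD AAV-BCKDK replicate 1. Between HFD AAV-BCKDK and ND AAV-CON, Optn differed by -0.20 (95% interval -0.55 to 0.14), Map1lc3a by 0.16 (-0.35 to 0.67), Map1lc3b by -0.11 (-0.38 to 0.16) and Bnip3 by 0.05 (-0.32 to 0.43). The differences of Bnip3l, Fundc1, Sqstm1 and Gabarapl2 in that comparison lay between 0.03 and 0.10, with intervals inside -0.15 to 0.31.

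The order of the HFD AAV-CON libraries was shared by the members. Replicate 1 was lowest and replicate 2 highest for the 9 members other than Fundc1. Over all genes tested, replicate 3 lay between the other libraries of the group for 64.1%, in either order. The mitochondrial RNA share and the summed cardiomyocyte, endothelial, erythroid, and pericyte and smooth muscle markers ran the same way as the members. The summed fibroblast, macrophage, and T and NK cell markers ran the opposite way, with replicate 1 highest and replicate 2 lowest. Summed neutrophil markers (12.0, 14.0 and 13.6 CPM in replicates 1, 2 and 3) ran the same way as the members. Summed skeletal muscle markers (818, 332 and 643 CPM) ran the opposite way, with Acta1 alone at 815, 331 and 641 CPM. Summed adipocyte markers reached at most 0.38 CPM in this group. Summed cardiomyocyte markers (8 of 8 measured, none at 0) ranged from 29297 to 31785 CPM in HFD AAV-BCKDK, from 16182 to 26797 CPM in HFD AAV-CON and from 33010.2 to 34171 CPM in ND AAV-CON, with 6 of 8 falling under the diet and a median of -0.72. Macrophage and monocyte markers (8 of 8, none at 0) ranged from 512 to 672 CPM in HFD AAV-BCKDK, from 1868 to 3066 CPM in HFD AAV-CON and from 669 to 932 CPM in ND AAV-CON, and fibroblast markers (7 of 7, none at 0) from 1151 to 1277, 1890.4 to 4509 and 1318 to 1402 CPM in the same order. Endothelial markers (6 of 6, none at 0) ranged from 761 to 868 CPM in HFD AAV-BCKDK, from 488 to 654 CPM in HFD AAV-CON and from 705 to 786 CPM in ND AAV-CON, with 4 of 6 falling under the diet and 6 of 6 rising with the vector. T and NK cell markers (5 of 5 measured, with Cd8a at 0 in ND AAV-CON replicate 2) ranged from 1.43 to 9.02 CPM in HFD AAV-BCKDK, from 73.5 to 131 CPM in HFD AAV-CON and from 1.16 to 28.2 CPM in ND AAV-CON, with 5 of 5 rising under the diet (median 3.09) and 5 of 5 falling with the vector (median -4.34). Pericyte and smooth muscle markers (4 of 4, none at 0) ranged from 1038 to 1068 CPM in HFD AAV-BCKDK, from 674 to 909.7 CPM in HFD AAV-CON and from 1083 to 1169 CPM in ND AAV-CON, with 2 of 4 falling under the diet and 1 of 4 rising with the vector. In bulk tissue fewer cells of a type and less RNA per cell cannot be told apart, and the part of cell composition in the values of the members was not tested.

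Ratios of paired members within a library do not depend on scaling, and were compared with exact two-sided permutation tests, where 3 libraries against 3 can give no p below 0.1. The ratio of Gabarapl1 to Gabarapl2 counts was 1.78, 1.48 and 1.66 in HFD AAV-BCKDK, 1.43, 1.65 and 1.47 in HFD AAV-CON, against 2.17, 2.19 and 2.53 in ND AAV-CON. Both high-fat groups lay below the normal-diet group without overlap, by 0.49 on the log2 scale for HFD AAV-BCKDK and by 0.60 for HFD AAV-CON (exact p = 0.1 for each), and they overlapped each other (difference 0.11, exact p = 0.2).

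The ratio of Sqstm1 to Optn was 5.72, 7.14 and 6.62 in HFD AAV-BCKDK, 8.91, 7.03 and 7.85 in HFD AAV-CON, against 5.99, 5.26 and 4.94 in ND AAV-CON. It was higher in HFD AAV-CON than in ND AAV-CON by 0.55 on the log2 scale, with no overlap (exact p = 0.1). The ratio of Bnip3 to Bnip3l was 5.18, 4.95 and 4.62 in HFD AAV-BCKDK, 2.78, 4.03 and 3.38 in HFD AAV-CON, against 3.95, 5.08 and 5.57 in ND AAV-CON, so the vector group lay above the high-fat controls by 0.55 (exact p = 0.1) while the high-fat and normal-diet control groups overlapped (difference -0.52, exact p = 0.2). The ratio of Map1lc3a to Map1lc3b was 1.36, 1.59 and 1.30 in HFD AAV-BCKDK, 0.872, 1.31 and 1.03 in HFD AAV-CON, against 1.09, 1.20 and 1.21 in ND AAV-CON, and its groups separated only between HFD AAV-BCKDK and ND AAV-CON (0.27, exact p = 0.1).

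**Figure D4:**
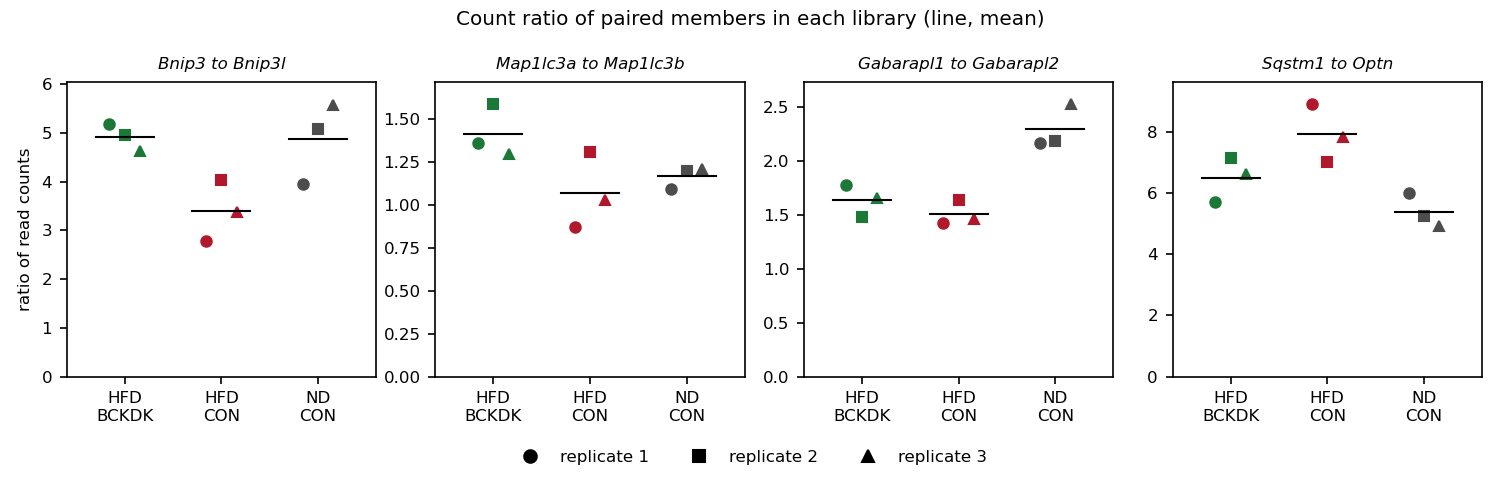
Ratio of the read counts of paired members in each library, by group, with the mean as a line. For Gabarapl1 to Gabarapl2 the 6 high-fat libraries lie between 1.43 and 1.78 and the 3 ND AAV-CON libraries between 2.17 and 2.53.

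Per kilobase of the longest well-supported coding transcript, Map1lc3a had the highest mean in all groups, at 321 ± 28.0 in HFD AAV-BCKDK, 179 ± 68.2 in HFD AAV-CON and 287 ± 23.1 in ND AAV-CON (RPKM, mean ± SD, n = 3). Bnip3, Pink1 and Sqstm1 followed in ND AAV-CON at 193 ± 29.6, 186 ± 3.73 and 174 ± 1.45 RPKM, and the libraries of Bnip3 (159 to 215 RPKM) overlapped those of Pink1 and Sqstm1 but not those of Map1lc3a (260.1 to 303 RPKM). Map1lc3b (108 ± 3.22) and Gabarapl1 (102 ± 6.01) were neighbours of the same kind, followed by Gabarapl2 (48.3 ± 3.05), Optn (33.1 ± 3.07), Bnip3l (21.4 ± 0.47) and Fundc1 (15.5 ± 0.56). In HFD AAV-CON the order changed at one place: Sqstm1, at 153 ± 7.22 RPKM, stood above Bnip3 (118 ± 24.0) and Pink1 (104 ± 44.4). The libraries of Map1lc3a and Sqstm1 overlapped there, and in replicate 1 Map1lc3a (118 RPKM) was below Sqstm1 (146 RPKM). Over the union of all annotated exons, Map1lc3b came to 36.3 RPKM in ND AAV-CON, well below Gabarapl1 at 92.2 RPKM. By that length Pink1, at 165.6 RPKM, stood above Bnip3, at 149.3 RPKM. The places of Map1lc3b, Bnip3 and Pink1 therefore rest on the length used.

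The genes whose pattern over the 9 libraries lay closest to 3 of the members were found by the root mean square difference of log2 CPM, each gene centred on its own mean, among 11195 genes. For Pink1 these were Nipsnap2, a mitochondrial matrix protein gene (difference 0.06), Hrc, a calcium-binding protein of the sarcoplasmic reticulum (0.06), and the mitochondrially encoded mt-Nd1 (0.07), where the median gene differed by 0.57. For Bnip3 they were Stau2, an RNA-binding protein gene, Cmc2, needed for cytochrome c oxidase assembly, and Mtg1, a mitochondrial GTPase gene (0.08, 0.08 and 0.09, median gene 0.43). For Sqstm1 the closest of the 11195 genes was another member, Bnip3l (0.03), followed by Rab14 and Pus1 (0.03 and 0.04, median gene 0.25). The measure is not scaled to how much a gene varies, so genes that move little lie close together. The SDs within groups were 0.07 for Sqstm1 and 0.05 for Bnip3l on the log2 scale, against 0.36 for Pink1. Among the members themselves Bnip3l and Sqstm1 were closest, and Pink1 and Fundc1 were farthest apart (0.52).

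The rest of the autophagy machinery was described by lists of related genes. Each list is read beside all genes tested, of which 43.3% were called for the diet and 38.2% for the vector. Calls over all genes, 6134 and 5410, also moved when 1 library was left out. Without ND AAV-CON replicates 1, 2 and 3 they numbered 4812, 4271 and 5143 for the diet. Without HFD AAV-CON replicates 1, 2 and 3 they numbered 4435, 7325 and 4050 for the diet, and 3434, 6978 and 2847 for the vector. Without HFD AAV-BCKDK replicates 1, 2 and 3 they numbered 3194, 3403 and 3903 for the vector. Of 19 genes of autophagy initiation and membrane nucleation, 7 fell and 1 rose under the diet (median -0.13). Over all genes 20.6% fell and 22.7% rose. With the vector 6 rose and 2 fell (median 0.07), where 17.3% and 20.9% of all genes did. Ulk1, the kinase that starts autophagy, fell by 0.67 (SE 0.11, adjusted p = 0.00179) and rose by 0.47 with the vector (SE 0.11, adjusted p = 0.0112). Wdr45, a phosphoinositide-binding protein of the forming autophagosome, moved the same way (-0.78, adjusted p = 0.00104, and 0.54, adjusted p = 0.00617). Rb1cc1, the scaffold of the ULK complex, fell by 0.41 (adjusted p = 0.00525), and Wipi1 fell by 0.25 (0.0171) and rose by 0.25 with the vector (0.0198). Uvrag, a partner of Beclin 1, rose by 0.36 under the diet (0.0223) and fell by 0.43 with the vector (0.0139), and Ulk2 rose by 0.31 with the vector (0.0067), with a diet value of -0.13 (0.13). The 8 diet calls became 5 without ND AAV-CON replicate 1, 4 without ND AAV-CON replicate 2, 5 without HFD AAV-CON replicate 1 and 4 without HFD AAV-CON replicate 3. The 8 vector calls became 4 without HFD AAV-CON replicate 1, 3 without HFD AAV-BCKDK replicate 1 and 4 without HFD AAV-BCKDK replicate 2.

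Of 12 genes for enzymes that attach ATG8 proteins to lipid or cut them free again, 2 fell and 3 rose under the diet (median -0.04). Among all genes 20.6% fell and 22.7% rose. With the vector 2 rose and 1 fell (median 0.01), where 17.3% and 20.9% of all genes did. Atg10, the conjugating enzyme for ATG12, fell by 0.73 (SE 0.15, adjusted p = 0.0044) and rose by 0.67 with the vector (SE 0.15, adjusted p = 0.00881). Of the ATG4 proteases, Atg4c rose by 0.51 (0.0151) and Atg4b by 0.24 (0.0437) under the diet, and Atg4d rose by 0.52 with the vector (0.0192). Atg16l2 rose by 0.41 under the diet (0.0282) and fell by 0.55 with the vector (0.0115). The 5 diet calls became 1 without ND AAV-CON replicate 2 or HFD AAV-CON replicate 3, 2 without HFD AAV-CON replicate 1, and 3 without ND AAV-CON replicate 3, HFD AAV-BCKDK replicate 1 or HFD AAV-BCKDK replicate 3. The 3 vector calls became 5 without HFD AAV-CON replicate 2 and 1 without HFD AAV-CON replicate 3.

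Of 23 other mitophagy and selective autophagy genes, 12 fell and 1 rose under the diet (median -0.32), where 20.6% and 22.7% of all genes did. With the vector 8 rose and none fell (median 0.16), against 17.3% and 20.9% of all genes. Retreg1, a receptor for autophagy of the endoplasmic reticulum, fell by 1.13 under the diet (SE 0.12, adjusted p = 4.83e-04) and rose by 0.40 with the vector (SE 0.12, adjusted p = 0.0261). In HFD AAV-BCKDK against ND AAV-CON it was the 1 gene of this list called (log2 fold change -0.72, SE 0.12, adjusted p = 0.0194), and it was not called without any 1 of the 7 libraries other than HFD AAV-CON replicates 1 and 2. Fundc2, the paralog of Fundc1, fell by 0.68 (0.00471) and rose by 0.59 with the vector (0.011), whereas Fundc1 was not called in either. Nipsnap2, whose protein has been described as a mitophagy signal on damaged mitochondria, fell by 0.86 (SE 0.24, adjusted p = 0.019) and rose by 0.93 (SE 0.24, adjusted p = 0.0168). Calcoco1, another receptor gene, fell by 0.66 (0.00884) and rose by 0.51 (0.0286), and the ubiquitin ligase gene Mul1 fell by 0.36 (0.0463) and rose by 0.49 (0.0171). Fbxl4, which restrains BNIP3 and NIX, fell by 0.69 under the diet (0.00832) and was at 0.16 with the vector (0.446). The 13 diet calls became 7 without ND AAV-CON replicate 2, 8 without HFD AAV-CON replicate 1 and 6 without HFD AAV-CON replicate 3. The 8 vector calls became 4, 13 and 2 without HFD AAV-CON replicates 1, 2 and 3, and 1, 3 and 5 without HFD AAV-BCKDK replicates 1, 2 and 3.

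**Figure D5:**
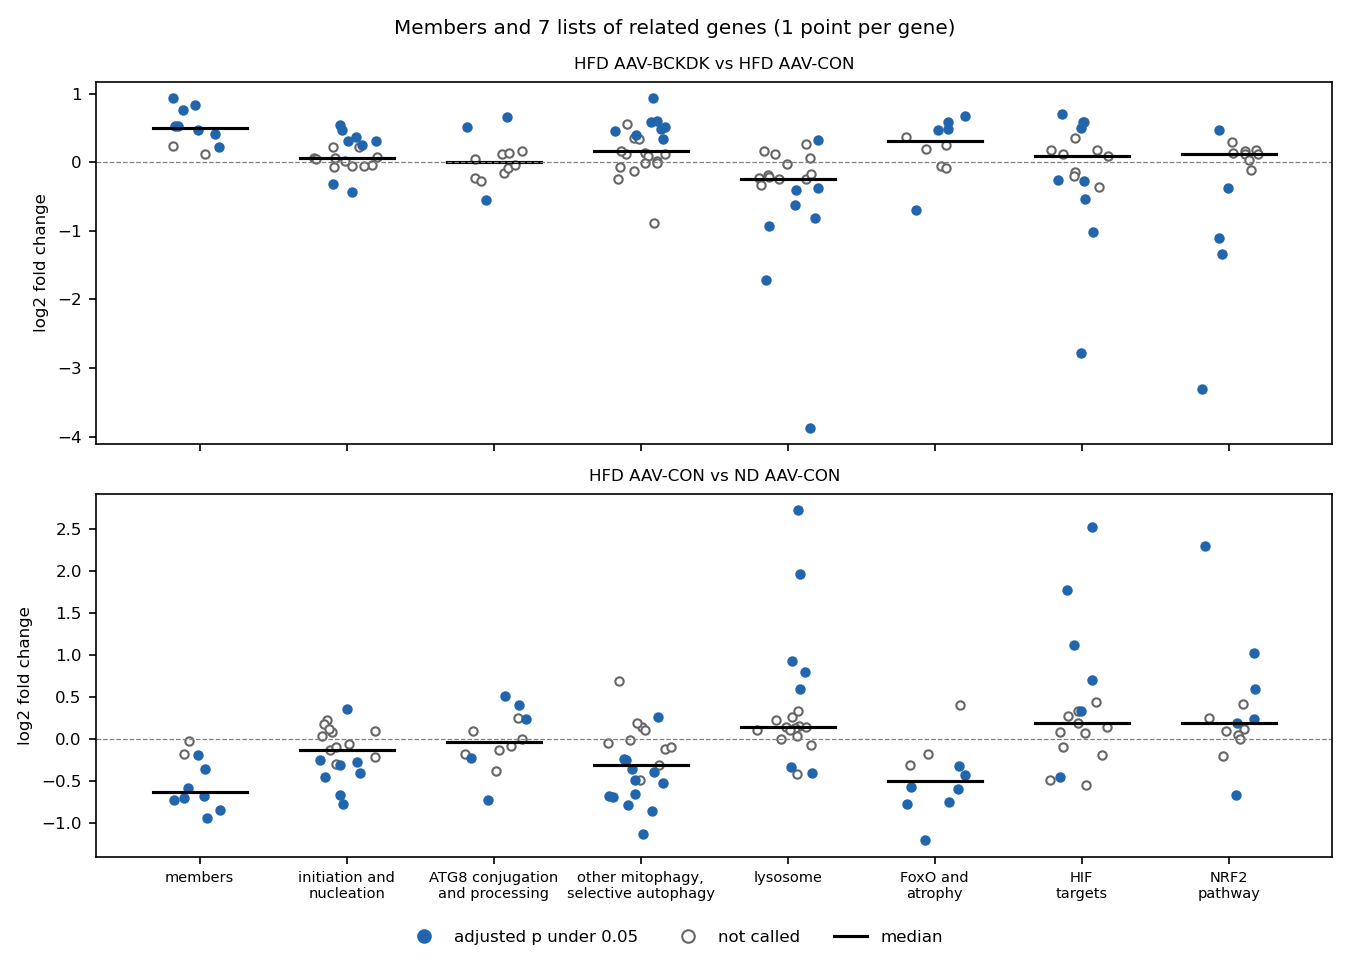
Log2 fold change of each gene (points) in the members and in 7 lists of related genes, for the vector above and the diet below; blue points have an adjusted p under 0.05 and the line is the median. The members' median is 0.50 above and -0.63 below, and the lysosome list lies on the other side of 0 in both panels (-0.24 and 0.14).

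Lysosomes are the downstream end of the pathway. Of 20 lysosomal genes 5 rose and 2 fell under the diet (median 0.14), where 22.7% and 20.6% of all genes did. With the vector 1 rose and 7 fell (median -0.24), against 17.3% and 20.9% of all genes. Atp6v1a, a subunit of the proton pump that acidifies lysosomes, rose by 0.80 (SE 0.10, adjusted p = 6.62e-04) and fell by 0.81 with the vector (SE 0.10, adjusted p = 0.00126). Gpnmb, abundant in lipid-laden macrophages, rose by 1.97 (0.00167) and fell by 1.72 (0.00411), and Atp6v0d2, a pump subunit of osteoclasts and macrophages, rose by 2.73 (0.00666) and fell by 3.87 (0.00337). The level of Atp6v0d2 was low, at 0.41, 0.18 and 0.09 CPM in HFD AAV-BCKDK. It was 3.19, 4.23 and 2.31 CPM in HFD AAV-CON and 0.16, 0.35 and 0.93 CPM in ND AAV-CON. The summed macrophage markers given above were higher in HFD AAV-CON as well, and their part in these values was not tested. The 8 vector calls became 4 without HFD AAV-CON replicate 1 or 3 or HFD AAV-BCKDK replicate 1, and 5 without HFD AAV-BCKDK replicate 2.

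FoxO transcription factors are known in skeletal muscle to drive several of the members, together with the atrophy ubiquitin ligases. Of 10 genes of this list 7 fell and none rose under the diet (median -0.50), where 20.6% and 22.7% of all genes did. With the vector 4 rose and 1 fell (median 0.31), against 17.3% and 20.9% of all genes. Fbxo32, the atrophy ligase atrogin-1, fell by 1.21 under the diet (SE 0.11, adjusted p = 3.46e-04), rose by 0.58 with the vector (SE 0.11, adjusted p = 0.00497) and was lower in HFD AAV-BCKDK than in ND AAV-CON (log2 fold change -0.62, SE 0.11, adjusted p = 0.0256). Its levels were 96.0, 105 and 98.6 CPM in HFD AAV-BCKDK, 58.2, 77.1 and 64.4 CPM in HFD AAV-CON and 145, 167 and 148 CPM in ND AAV-CON, 3 ranges that did not overlap. Trim63, the ligase MuRF1, fell by 0.75 (0.00177), with a vector value of 0.26 (0.117). Sesn1 fell by 0.77 (0.0038) and rose by 0.48 (0.0319), Foxo4 fell by 0.43 (0.0155) and rose by 0.68 (0.00316), and Sesn3 fell by 0.70 with the vector (0.0124), with a diet value of 0.40 (0.0743). Cited2 fell by 0.60 under the diet (0.005) and had a vector value of -0.08 (0.646). In HFD AAV-BCKDK against ND AAV-CON, 3 of the 10 fell, Fbxo32, Cited2 (-0.68, adjusted p = 0.0279) and Fbxo30 (-0.38, adjusted p = 0.0429), where 1.27% of all genes did; Fbxo30 was named after its values were seen. These 3 calls became 1 without ND AAV-CON replicate 1 and 0 without ND AAV-CON replicate 2 or 3, HFD AAV-CON replicate 3 or any HFD AAV-BCKDK replicate. The 5 vector calls became 3 without HFD AAV-CON replicate 1, HFD AAV-BCKDK replicate 1 or HFD AAV-BCKDK replicate 2, and 2 without HFD AAV-CON replicate 3.

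Bnip3 is a target of hypoxia-inducible factors. Of 17 other targets 5 rose and 1 fell under the diet (median 0.19), where 22.7% and 20.6% of all genes did. With the vector 3 rose and 5 fell (median 0.09), against 17.3% and 20.9% of all genes. P4ha1, a collagen prolyl hydroxylase, rose by 1.78 under the diet (adjusted p = 2.19e-04) and fell by 0.54 with the vector (adjusted p = 0.0157), Bhlhe40, a transcriptional repressor gene, rose by 1.12 under the diet (6.92e-04), and the glucose transporter gene Slc2a1 rose by 0.70 (0.00326) and fell by 1.02 (0.00139). Pdk1, which restrains pyruvate oxidation, fell by 0.45 (0.0152) and rose by 0.59 with the vector (0.00638), and Egln1, an oxygen-sensing hydroxylase, rose by 0.71 with the vector (0.0212) with a diet value of -0.48 (0.0699). Relative to ND AAV-CON, 4 of the 17 rose in HFD AAV-BCKDK, P4ha1 (1.24, adjusted p = 0.00401), Bhlhe40 (0.76, adjusted p = 0.0274), Egln3 (0.94, adjusted p = 0.0271) and Vegfa (0.70, adjusted p = 0.0474), where 1.18% of all genes did; Egln3 and Vegfa were named after their values were seen. That count became 1 without any 1 of the ND AAV-CON or HFD AAV-BCKDK libraries or HFD AAV-CON replicate 3. The 6 diet calls became 3 without ND AAV-CON replicate 1. The 8 vector calls became 5 without ND AAV-CON replicate 3 or HFD AAV-BCKDK replicate 3, 4 without HFD AAV-CON replicate 1 or HFD AAV-BCKDK replicate 1, and 2 without HFD AAV-CON replicate 3 or HFD AAV-BCKDK replicate 2.

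The NRF2 pathway, of which Sqstm1 is a known target and regulator, was described in the same way. Of 13 genes 5 rose and 1 fell under the diet (median 0.20), where 22.7% and 20.6% of all genes did. With the vector 1 rose and 4 fell (median 0.12), against 17.3% and 20.9% of all genes. Srxn1, which restores oxidised peroxiredoxins, rose by 0.60 under the diet (0.0014). Nfe2l2, which encodes NRF2 itself, rose by 0.23 (0.0456) and fell by 0.38 with the vector (0.00877), while Gclm, a subunit of the enzyme that starts glutathione synthesis, fell by 0.67 (5.85e-04) and rose by 0.47 with the vector (0.00259). G6pdx, a source of NADPH, rose by 1.03 (0.00214) and fell by 1.11 (0.00242), and the cystine transporter gene Slc7a11 rose by 2.31 (0.0198) and fell by 3.30 (0.00973). The level of Slc7a11 was low, at 0.14, 0.18 and 0 CPM in HFD AAV-BCKDK. It was 1.30, 0.81 and 0.79 CPM in HFD AAV-CON and 0.16, 0.16 and 0.25 CPM in ND AAV-CON. Hmox1, which degrades heme, had a diet value of -0.20 (0.117) and fell by 1.34 with the vector (SE 0.10, adjusted p = 6.06e-04), to 17.5, 17.5 and 14.1 CPM in HFD AAV-BCKDK, against 42.2, 38.6 and 43.7 CPM in HFD AAV-CON. ND AAV-CON held 48.3, 46.7 and 48.1 CPM, and HFD AAV-BCKDK was lower than it (log2 fold change -1.54, SE 0.10, adjusted p = 3.1e-04). Of the 13 genes, 2 rose in that comparison, Srxn1 (0.64, adjusted p = 0.0101) and Txnrd1 (0.33, adjusted p = 0.0434, named after its values were seen), and 1 fell, Hmox1. These 3 calls became 1 without ND AAV-CON replicate 1 or 2 or HFD AAV-BCKDK replicate 2, and 5 without HFD AAV-CON replicate 2. The 6 diet calls became 3 without ND AAV-CON replicate 2 or HFD AAV-CON replicate 1 or 3.

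Like the members, the lists shift with the scaling, and so do all genes. Over all genes tested, total counts gave 5986 rises and 934 falls for the diet, and 398 rises and 6867 falls for the vector. With total counts the diet calls became 6 rises and 2 falls for initiation genes, 6 rises and 4 falls for the other mitophagy genes, 16 rises for lysosomal genes and 1 rise and 3 falls for the FoxO list. The hypoxia targets had 12 rises there, the NRF2 list 11 rises and 1 fall, and the conjugation list 6 rises and 1 fall. The vector calls became 9 falls for initiation genes, 1 rise and 10 falls for the other mitophagy genes, 16 falls for lysosomal genes, 3 for the FoxO list, 10 for hypoxia targets, 7 for the NRF2 list and 8 for the conjugation list.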

How the data were processed

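The deposited table holds raw read counts per gene for each library, which the authors did not normalize. HISAT2 2.0.5 and the build mm10 are named per the submitters' processing notes; no counter, annotation or strand setting is given in these sources. Of 26178 entries, 22036 carry Ensembl gene identifiers; the 4142 unnamed loci (1.02% to 6.01% of counts) were left out. Counts were filtered with filterByExpr (14160 genes), scaled with TMM and tested with edgeR 4.0.16 in R 4.3.3, as a quasi-likelihood model over all 9 libraries with 1 coefficient per group, p-values adjusted by Benjamini-Hochberg over all genes and called under 0.05. Each p that follows a fold change in the text is this adjusted p. The SE of a fold change comes from its F statistic. Replicates are labelled biological; no pair was alike within counting error (chi-square per degree of freedom at least 14.7). Replicate numbers did not pair the libraries (correlations of deviations from -0.22 to 0.19). The members and lists were chosen with earlier results of these data known; up to 4 genes of each list with the smallest p for the diet and for the vector are named, except that some are not reported here. Lengths, coordinates and overlaps come from GENCODE M21 (mm10) and promoters from RefSeq. One listed gene, whose symbol the table holds as a date, was matched by that form. Alternatives were RLE and upper-quartile factors, total counts, no mitochondrially encoded genes, other filters, DESeq2 1.42.0, limma-voom (limma 3.58.1), a replicate block, fits of 2 groups, a rate of 0.01 and each library left out. The fit was also run on simulated counts in which few genes changed, equally up and down, with the same spread in every group. That run cannot speak for the scaling or for the wider spread of HFD AAV-CON in these data.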

Additional observations from a re-analysis of the deposited data

How the results depend on the processing

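Of 600 values of members under other settings, 522 kept direction and side of the threshold. A call was lost with the sign kept in 54, gained in 4, and the sign changed in 20. The tally takes in HFD AAV-BCKDK against ND AAV-CON, where no member had a call to lose, and leaves out the rate of 0.01. Limma-voom kept all of its 30. Total counts left 3 members called for the diet and 2 for the vector, and 136 genes between HFD AAV-BCKDK and ND AAV-CON. They turned Bnip3l, Fundc1, Sqstm1 and Gabarapl2 to 0.204, 0.374, 0.211 and 0.034 for the diet and -0.226, -0.331, -0.215 and -0.025 for the vector, and Bnip3, Bnip3l and Sqstm1 to -0.00795, -0.022 and -0.0044 between HFD AAV-BCKDK and ND AAV-CON. All diet calls then numbered 5986 up and 934 down, against 3215 and 2919 with TMM, and all vector calls 398 up and 6867 down, against 2444 and 2966. Total counts without mitochondrially encoded genes, chosen after seeing the data, left Fundc1 at 0.12 and -0.017, and a minimum CPM of 5 in 3 libraries left its diet value at 0.00303. A rate of 0.01 left 4 and 2 members and 3254, 2058 and 64 genes called for the diet, the vector and HFD AAV-BCKDK against ND AAV-CON. Fits of only 2 groups called 5 members and 5220 genes for the diet, and 6 members and 4095 genes for the vector. Between HFD AAV-BCKDK and ND AAV-CON they called 1 member and 873 genes, where DESeq2 called 902 genes and TMM with edgeR 347.

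Leaving out 1 library gave 4050 to 7325 genes and 5 to 8 members for the diet, 2847 to 6978 genes and 3 to 9 members for the vector, and 43 to 744 genes and 0 members between HFD AAV-BCKDK and ND AAV-CON. The diet value of Fundc1 ranged from -0.115 to 0.030. Between HFD AAV-BCKDK and ND AAV-CON, Bnip3 ranged from -0.067 to 0.141, Bnip3l from -0.014 to 0.068, Sqstm1 from -0.0075 to 0.082 and the log2 ratio of Bnip3 to Bnip3l from -0.116 to 0.132.

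With the replicate number as a block, 107 genes were called between HFD AAV-BCKDK and ND AAV-CON. For the diet the block called 5614 genes and for the vector 4922, against 6134 and 5410 without it. Under the block 7 members were called for the diet, where Bnip3l was lost (adjusted p = 0.0786), and 6 for the vector, where Bnip3l (0.053) and Optn (0.0504) were lost. The numbers do not pair the libraries. The cause of these differences was not tested. With 3 libraries a group the common biological coefficient of variation was 18.6%.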
